A study of Mus musculus with 80 samples.

Results

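The 8 mouse genes described here are cell cycle gates and growth arrest genes, namely Wee1, Cdkn1a, Ccnd1, Ccne1, Gadd45a, Gadd45b, Gadd45g and Myc. They were taken by gene symbol alone from the 78275 genes of a liver count table, all 8 were found, and all 8 were among the 21187 genes that passed the filter on low counts. The livers came from C57BL/6J mice, an inbred laboratory strain, that carried no engineered allele in the labels and were bought at 8 to 12 weeks of age. After 10 days of a light and dark cycle the mice were kept in constant darkness. Chow stayed in the cage of control mice throughout, and was taken away at circadian time (CT) 10 from fasted mice. At intervals of 4 h between CT8 and CT44, livers of 2 males and 2 females of each treatment were taken, which gave 10 times, 4 libraries for each treatment and time, and 80 libraries in all, each from 1 mouse. At CT8 the group called fasted had not yet lost its food, and the comparison at that time is between 2 fed groups. The model is short-term food withdrawal in young adult mice whose livers divide little, and the tissue was a piece of the left lobe with all of its cell types.

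Wee1 encodes a kinase that places an inhibitory phosphate on the mitotic cyclin-dependent kinase (CDK) and so holds a cell before mitosis, and in mouse liver it is a known output of the circadian clock. Cdkn1a encodes p21, an inhibitor of cyclin and CDK complexes, while Ccnd1 and Ccne1 encode cyclins D1 and E1, which drive CDKs through G1 and into S phase. The GADD45 proteins are small, acidic and closely related, bind p21, PCNA and the upstream stress kinase MAP3K4, and are induced by DNA damage and other stress. MYC is a transcription factor that pairs with MAX on E-box sequences and promotes growth and biosynthesis. The adult liver is mostly quiescent, and in hepatocytes several of these genes are known to answer stress hormones, nutrients and the clock.

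The GADD45 genes are paralogs that went in different directions in the fasted livers, and their start regions are shown because the values below split the family. Promoters of 5 of the 8 genes were found in a RefSeq table of the GRCm38.p6 build, with Wee1, Ccnd1 and Myc not in it. The 250 bases before the start are printed 5′ to 3′ on the strand of the gene. Capitals mark an E-box (CACGTG) or a TATA element (TATAAA). The windows lie at chr6:67037408-67037657 on the minus strand for Gadd45a, at chr10:80929841-80930090 on the plus strand for Gadd45b and at chr13:51846425-51846674 on the plus strand for Gadd45g.
Gadd45a: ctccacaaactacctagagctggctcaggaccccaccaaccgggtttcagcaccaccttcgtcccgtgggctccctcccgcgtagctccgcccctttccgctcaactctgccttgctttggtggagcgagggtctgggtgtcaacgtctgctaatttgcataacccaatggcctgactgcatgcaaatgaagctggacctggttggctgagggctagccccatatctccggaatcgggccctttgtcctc
Gadd45b: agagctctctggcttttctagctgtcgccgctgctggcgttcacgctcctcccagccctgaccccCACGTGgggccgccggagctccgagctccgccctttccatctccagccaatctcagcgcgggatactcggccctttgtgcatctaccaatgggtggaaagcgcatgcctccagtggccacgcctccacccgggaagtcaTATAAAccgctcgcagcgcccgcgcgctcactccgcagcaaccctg
Gadd45g: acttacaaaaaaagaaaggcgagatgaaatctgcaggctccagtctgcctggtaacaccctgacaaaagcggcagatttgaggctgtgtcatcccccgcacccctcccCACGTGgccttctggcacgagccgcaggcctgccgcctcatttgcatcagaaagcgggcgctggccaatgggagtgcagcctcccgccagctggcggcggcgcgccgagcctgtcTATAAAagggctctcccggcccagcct
The E-box begins 185 bases before the start in Gadd45b and 142 bases before it in Gadd45g, and the TATA element begins 46 and 27 bases before the start. The Gadd45a window, the Ccne1 window and both Cdkn1a windows hold neither. Of 32851 promoters in the table, 6.02% hold CACGTG, which is its own reverse complement, and 7.59% hold TATAAA on the strand of the gene. The D-box letters TTATGTAA or TTACGTAA, the full cyclic AMP response element TGACGTCA, its core TGACG, the glucocorticoid response element and the forkhead letters GTAAACA were searched on both strands. None of these occurs in the 3 GADD45 windows, against 0.931%, 1.55%, 17.8%, 0.387% and 3.17% of all promoters in that order. The TGACGTCA letters contain TGACG, so those matches overlap.

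Libraries held 25534901 to 59927771 gene counts (median 42303883), and values below are in CPM, the count of a gene relative to the TMM-scaled total of its library. Sex-linked transcripts matched the sex in the title in 80 of 80 libraries, and the fasting check genes moved with the title, as 2 of 4 were higher (Fgf21 and Pdk4) and 2 lower (Srebf1 and Fasn). The library of control CT8 female 2 held 31.3% ribosomal RNA counts, against at most 4.88% in any other. Hepatocyte markers were the most abundant marker list, with a summed level of 57590.3 to 110465 CPM (median 85255) in control and 71106 to 126566 CPM (median 93232) in fasted libraries, and no marker list was at 0 in a library. In the mean over CT12 to CT44, 32.9% of all genes were called lower and 29.5% higher in fasted livers. Of the Kupffer cell markers 6 of 6 were lower in fasted livers and of the cholangiocyte markers 4 of 5. Of the stellate cell markers 3 of 5 were lower (Lrat by -0.83 ± 0.059 on the log2 scale) and 1 higher, of the lymphocyte markers 3 of 5 lower (Ms4a1 by -1.09 ± 0.17), of the erythroid markers 2 of 5 lower, of the endothelial markers 2 of 5 lower and 2 higher, and of the hepatocyte markers 4 of 5 higher and 1 lower. In these pieces of whole liver, fewer cells of a type and less RNA per cell cannot be told apart.

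Fasting changed 7 of the 8 genes. Averaged over CT12 to CT44, Cdkn1a, Gadd45b, Gadd45g and Myc were higher in fasted livers, and Ccnd1, Gadd45a and Wee1 were lower. Ccne1 did not pass the test, with a log2 difference of -0.22 ± 0.18 (SE) and an edgeR adjusted p of 0.293. Among all genes tested, 62.5% were called for the same mean effect at an adjusted p under 0.05, 29.5% higher and 32.9% lower. The largest mean differences, as log2 of fasted over control, were 3.04 ± 0.17 (SE) for Cdkn1a, 2.88 ± 0.19 (SE) for Gadd45b and 2.78 ± 0.24 (SE) for Gadd45g, while the median over all genes tested was -0.020. In the joint test of all 9 fasted times, which asks whether a gene differed at any of them, 7 of 8 genes were again called (background 61.7%), with Ccne1 at an adjusted p of 0.341.

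**Figure D1:**
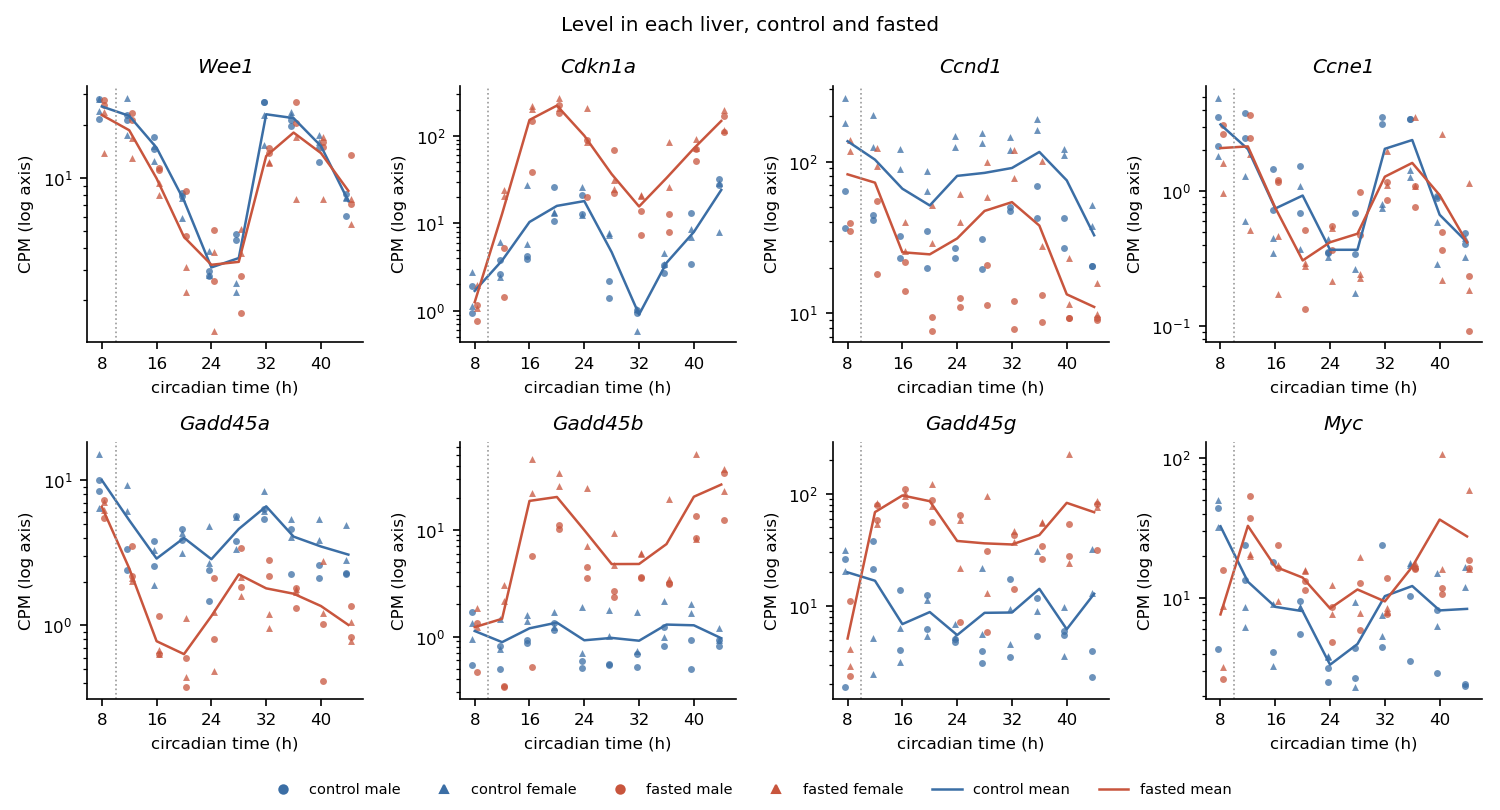
Level of each of the 8 genes in every liver (CPM, log axis) against circadian time in h, with control livers in blue, fasted livers in red, circles for males, triangles for females and lines through the group means. The dotted line marks food removal at CT10, after which the red points of Cdkn1a, Gadd45b and Gadd45g lie above the blue points at most times and those of Gadd45a below.

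Taken time by time, 44 of the 72 pairs of gene and time from CT12 to CT44 were called by edgeR's quasi-likelihood test, 26 higher and 18 lower in fasted livers, whereas 12.3% of all pairs of gene and time were called higher and 13.3% lower. Of these 44 calls, 15 passed under every alternative tried, and none changed direction in any. Cdkn1a was called at 8 of 9 times, and so were Gadd45a, Gadd45b and Gadd45g, followed by Ccnd1 at 7, Wee1 and Myc at 2 each and Ccne1 at 1. At CT12, 2 h after food removal, only Gadd45g was called, against 1.6% of all genes. At CT16, 5 were called (23.4% of all genes), at CT20, 7 (36.6%), at CT24, 5 (24.1%), at CT28, 4 (21%), at CT32, 6 (17.7%), at CT36, 4 (26.8%), and at CT40 and CT44, 6 each (39.9% and 39.4%). The 4 fasted and 4 control livers did not overlap at 7 of 9 times for Cdkn1a and for Gadd45b (fasted above), at 5 of 9 for Gadd45g (above) and for Gadd45a (below), and at 2 of 9 for Myc (above), Wee1 and Ccnd1 (below). Among all pairs of gene and time, 10.4% were separated in that way with the fasted livers above and 10.6% with them below.

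**Figure D2:**
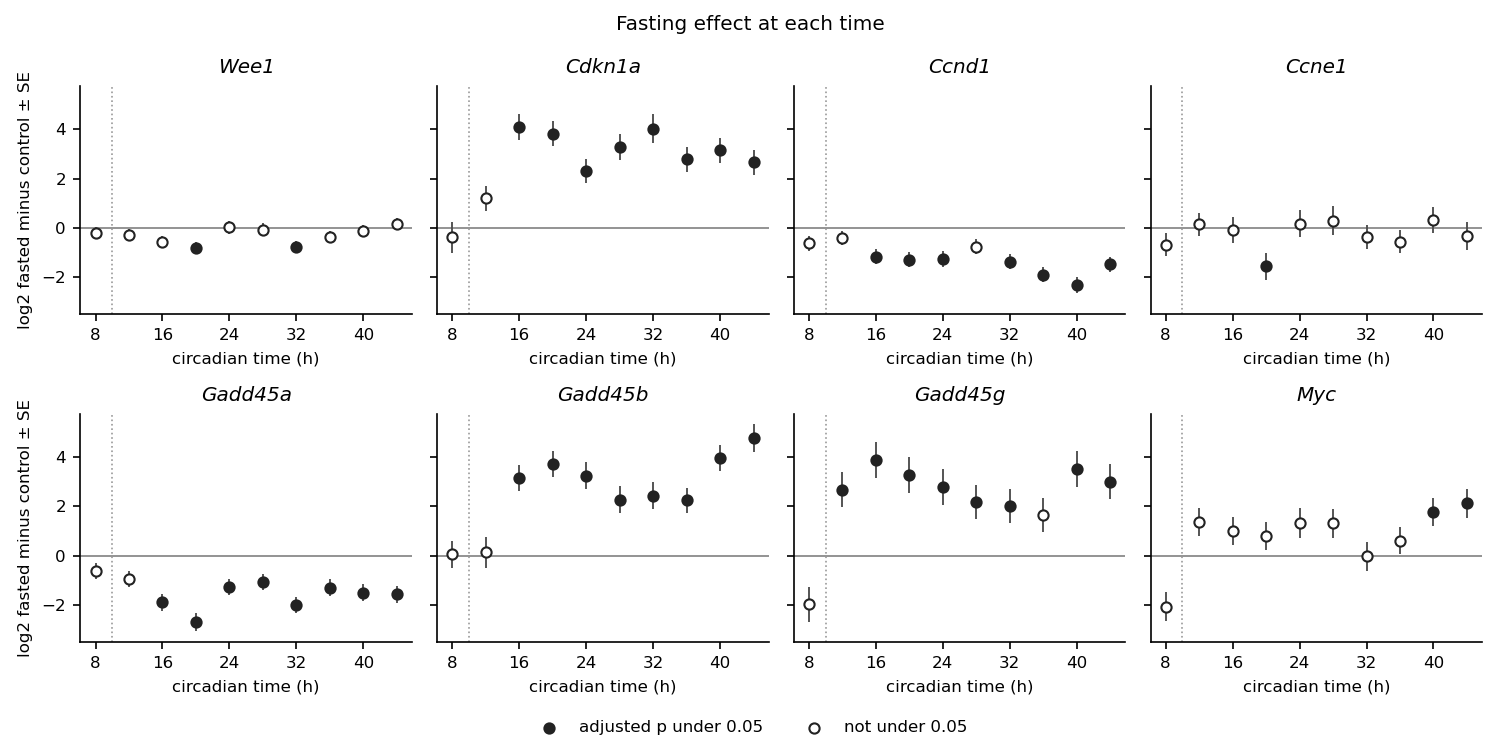
Log2 difference between fasted and control livers for each of the 8 genes (error bars are the SE of the edgeR fit) against circadian time in h, with filled points at an adjusted p under 0.05. Cdkn1a, Gadd45b and Gadd45g lie above 0 and Gadd45a and Ccnd1 below 0 at all 9 times after food removal, while the points of Wee1, Ccne1 and Myc lie on both sides of 0.

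Cdkn1a (p21) was called higher in fasted livers at every time from CT16 on. In each list of 4 values that follows, the livers are given in the order male 1, male 2, female 1 and female 2. At CT16, control livers had 4.26, 3.93, 27.4 and 5.85 CPM of Cdkn1a and fasted livers 149, 38.8, 218 and 203 CPM. Every fasted liver was above every control liver, although control female 1 came close to fasted male 2. The log2 difference was 4.09 ± 0.53 (SE), a ratio of means of 14.7, with an edgeR adjusted p of 1.08e-07. At CT20, control livers had 10.6, 26.4, 13.1 and 13.3 CPM and fasted livers 183, 225, 274 and 207 CPM, the highest group mean among the 20 groups at 222 ± 38.4 CPM (SD).

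The rise in Cdkn1a was kept while its level fell and rose again over the day. At CT32, 1 day after the CT8 samples, control livers had 1.02, 0.954, 0.592 and 1.06 CPM and fasted livers 7.26, 13.8, 20.3 and 20.9 CPM. The groups were far apart at the lowest point of the control day, and the ratio of means there, 17.2, was the highest of the 9 times. At CT44, control livers had 27.6, 31.7, 29.2 and 7.85 CPM and fasted livers 111, 167, 118 and 197 CPM, so control female 2 stood low among the controls and the groups were again apart. In between, at CT28, control livers had 1.42, 2.2, 7.3 and 7.79 CPM and fasted livers 68.1, 22, 24.4 and 31.6 CPM, with every fasted liver above the controls. At CT24 the groups overlapped, with 20.8, 12.7, 25.7 and 12.6 CPM in control livers and 90.4, 19.8, 208 and 84.4 CPM in fasted livers. Fasted male 2 lay within the control range there, and the log2 difference was 2.32 ± 0.49 (SE). The calls at CT24 and CT36 were lost in males alone (edgeR adjusted p 0.0833 and 0.102), and that at CT28 in females alone (0.0575). Cdkn1a was not called at CT12, where the fasted females had 20.7 and 24 CPM while neither fasted male was above the highest control.

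The other CDK inhibitors did not rise as much as Cdkn1a. Of the 6 listed, 5 passed the filter on low counts, of which 1 was higher, 3 were lower and 1 was not called for the mean fasting effect (29.5% and 32.9% of all genes higher and lower). With DESeq2 and with limma-voom, 2 were higher and 3 lower. Cdkn2b, an inhibitor of CDK4 and CDK6, was lower by a log2 difference of -1.02 ± 0.21 (SE), Cdkn2c, of the same class, by -0.17 ± 0.060, and Cdkn1b (p27) was higher by 0.12 ± 0.027. The level of Cdkn2b was low, with a mean of 0.239 CPM in control and 0.123 CPM in fasted livers. The median log2 difference of the 5 was -0.17.

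Wee1 kept its daily course in fasted livers and was lower at only part of the times. At CT20, control livers had 8.15, 7.89, 5.93 and 7.67 CPM of Wee1 and fasted livers 8.39, 4.66, 3.12 and 2.24 CPM. Fasted male 1 was as high as the controls and both fasted females were the lowest. The log2 difference was -0.82 ± 0.26 (SE) with an edgeR adjusted p of 0.00992. At CT32, control livers had 26.8, 27, 22.6 and 15.3 CPM and fasted livers 14.8, 13.9, 12.2 and 12.2 CPM, and all fasted livers were below all controls (log2 difference -0.77 ± 0.24 (SE), adjusted p 0.0198). At CT16, control livers had 17, 14.5, 12.5 and 15.1 CPM and fasted livers 11.1, 11.3, 7.94 and 9.26 CPM. All 4 fasted livers lay below all 4 controls there too, although the test was not passed (-0.59 ± 0.24 (SE), adjusted p 0.076). The 7 times not called gave differences from -0.59 at CT16 to 0.15 at CT44.

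The mean effect on Wee1, -0.32 ± 0.083 (SE), was small next to its daily range. Its mean in control livers was 25.4 ± 3.23 CPM (SD) at CT8, 22.9 ± 5.45 at CT32, 22.5 ± 4.59 at CT12 and 21.8 ± 1.72 at CT36, and these neighbours in the order differ by less than their spread. It was lowest at CT24 and CT28, with 3.08 ± 0.501 and 3.49 ± 1.3 CPM, again not apart from each other. With males alone, the mean effect on Wee1 was -0.15 and was no longer called (adjusted p 0.18), whereas the difference between the sexes itself did not pass (adjusted p 0.189).

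Of the 12 genes listed for inhibitory phosphorylation of CDKs and for checkpoints, 11 were tested, and 7 were lower and 2 higher in fasted livers (background 32.9% and 29.5%). Their median log2 difference was -0.73. The checkpoint kinases Chek2 and Chek1 were lower by -1.38 ± 0.090 and -1.38 ± 0.18 (SE), and Plk2, a polo-like kinase, by -0.78 ± 0.078. Pkmyt1, the other kinase that places the inhibitory phosphate on the mitotic CDK and named after its value was seen, was lower by -1.15 ± 0.16.

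Ccnd1, the D-type cyclin that couples growth signals to CDK4 and CDK6, was lower in fasted livers and differed between the sexes in both treatments. At CT40, control livers had 42.3, 27, 121 and 111 CPM of Ccnd1 and fasted livers 9.29, 9.37, 23.2 and 11.5 CPM. No fasted liver reached the lowest control, and in both treatments the males were below the females. The log2 difference was -2.31 ± 0.32 (SE), the largest for Ccnd1, with an edgeR adjusted p of 1.16e-07. At CT44, control livers had 20.5, 20.4, 52 and 37.8 CPM and fasted livers 9.29, 9.0, 9.94 and 15.9 CPM, the groups again apart and the sexes closer than at other times. At CT36, control livers had 42.8, 69.4, 161 and 189 CPM and fasted livers 13.2, 8.78, 28 and 101 CPM, so the fasted males were below every control and fasted female 2 lay among them. At CT16 and CT20 the log2 differences were -1.16 ± 0.31 (SE) and -1.29 ± 0.31 (SE), and at CT12 and CT28 Ccnd1 was not called. Before the fast, at CT8, Ccnd1 was already lower in the group to be fasted by -0.62 ± 0.30 (SE), not called (edgeR adjusted p 0.38). Control livers then had 36.6, 64.1, 264 and 180 CPM and the group to be fasted 35.1, 39.4, 117 and 138 CPM.

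At the 7 times of the fast other than CT40 and CT44, the 2 treatments overlapped with the sexes pooled. Within each sex, the 2 fasted livers were below the 2 controls at CT16, CT20, CT24, CT32 and CT36. At CT32 control female 2 and fasted female 1 were close, at 119 and 118 CPM. At CT12 and CT28 the males of the 2 treatments overlapped. Both females had more Ccnd1 than both males of their treatment at 10 of 10 times in control livers and at 10 of 10 in fasted livers. Among all genes, 1.33% showed this at every time in control livers and 0.821% in fasted livers. From CT12 to CT44 the range of Ccnd1 was 19.7 to 69.4 CPM (median 31.5) in control males, 37.8 to 202 CPM (median 122) in control females, 7.69 to 54.9 CPM (median 11.2) in fasted males and 9.94 to 124 CPM (median 45.6) in fasted females. The level in control females minus that in control males was 1.84 ± 0.14 (SE) on the log2 scale, with an edgeR adjusted p of 4.69e-15. The fasting effect itself was -1.33 ± 0.15 (SE) in males and -1.32 ± 0.14 (SE) in females, a difference of 0.013 ± 0.20 (SE) that did not pass the test.

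Ccnd1 differed more between the treatments late in the fast than early in it. Its log2 difference was -0.95 ± 0.18 (SE) over CT12, CT16 and CT20 and -1.90 ± 0.18 (SE) over CT36, CT40 and CT44, the same phases 1 day later. Late minus early, the difference was -0.94 ± 0.25 (SE) with an edgeR adjusted p of 0.0050. Of the 8 genes only Ccnd1 and Gadd45b were called in this test, which called 21.2% of all genes. The call for Ccnd1 was lost without male replicate 2 (-0.65, adjusted p 0.237), in females alone (adjusted p 0.085), in males alone (0.0643) and without sex in the model (0.374). The course was not even, since the difference at CT28, -0.76 ± 0.30 (SE), was smaller than that at CT16.

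Ccne1, the cyclin that drives CDK2 at the start of S phase, was a low transcript. From CT12 to CT44 it was between 0.177 and 3.82 CPM with a median of 0.69 in control livers, where the lowest library held 9 counts. It was between 0.0926 and 3.67 CPM with a median of 0.526 in fasted livers, down to 4 counts. At CT20, the 1 time called, control livers had 1.54, 0.692, 1.1 and 0.376 CPM and fasted livers 0.52, 0.135, 0.279 and 0.293 CPM (log2 difference -1.56 ± 0.55 (SE), edgeR adjusted p 0.0214). The lowest control, female 2, lay within the range of the fasted livers. The 4 fits that each left out a replicate gave -1.87 to -1.06, with adjusted p from 0.00183 to 0.181.

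The response of Ccne1 to fasting was called different between the sexes, a call lost in 3 of the 4 fits that each left out a replicate. In males the log2 difference over CT12 to CT44 was -0.76 ± 0.24 (SE) and in females 0.33 ± 0.25 (SE). Female minus male, it was 1.08 ± 0.35 (SE) with an edgeR adjusted p of 0.0347, the only one of the 8 genes called in a test that called 12.4% of all genes. At CT32, for example, control livers had 3.55, 3.12, 0.751 and 0.805 CPM and fasted livers 1.17, 0.853, 1.99 and 1.1 CPM, so that the fasted males were below the control males and the fasted females above the control females. Without the library of fasted CT40 female 2, which had 2.65 CPM of Ccne1 against at most 0.497 in the other 3 fasted livers at that time, the sex difference was 0.79 and was not called (adjusted p 0.115). Without female replicate 2 at all times it was 0.32 (adjusted p 0.602). The call was also lost without male replicate 1 (adjusted p 0.293), without male replicate 2 (0.267) and with limma-voom (0.143). The mean effect on Ccne1 over both sexes, not called in the fit of all livers, was -0.59 without female replicate 2 and -0.76 in males alone, and both passed (adjusted p 0.00135 and 0.000368).

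**Figure D3:**
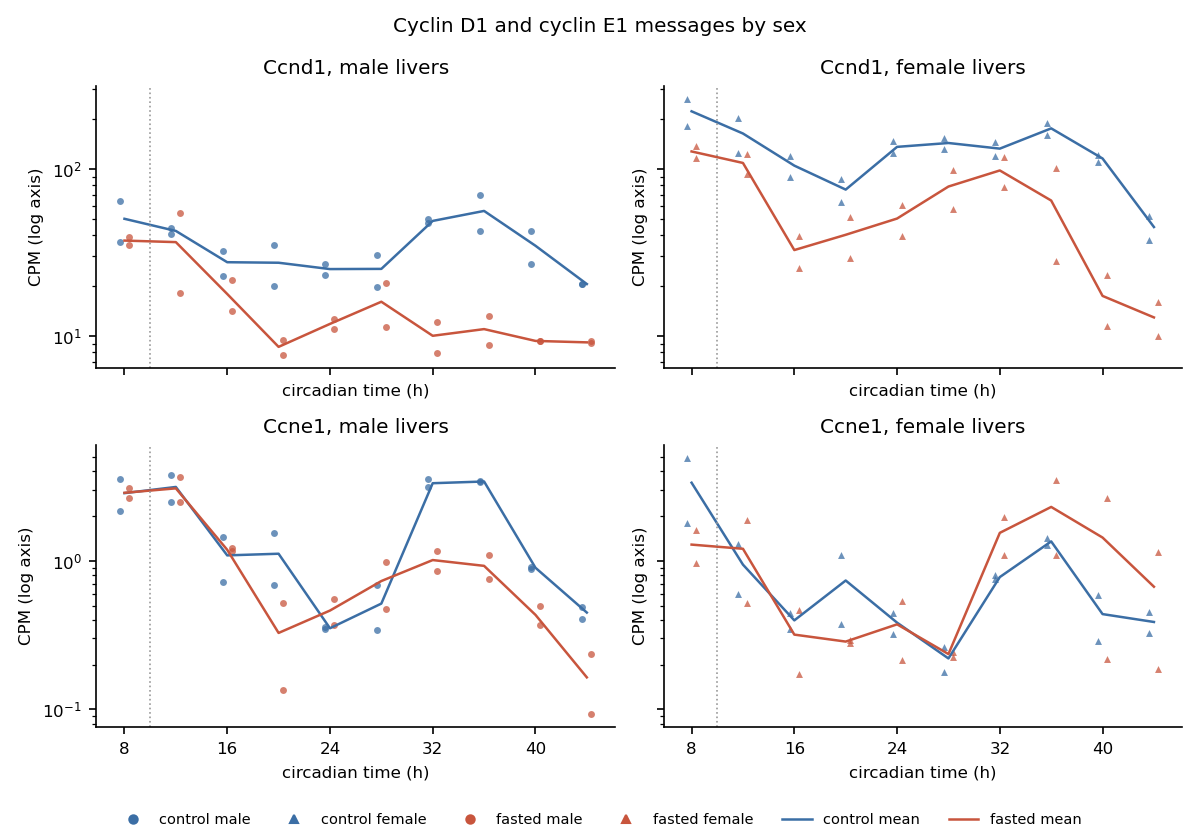
Levels of Ccnd1 and Ccne1 (CPM, log axis) against circadian time in h for each liver, with males and females drawn apart, control livers in blue and fasted livers in red. Female livers lie above male livers for Ccnd1 at all 10 times in both treatments, while for Ccne1 the control female mean is above the male mean at only 2 of 10 times.

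In control livers, 4 of the 8 genes differed between the sexes (background 39.2%). Besides Ccnd1, Gadd45a and Gadd45b were higher in females, by 0.45 ± 0.14 (SE) and 0.76 ± 0.25 (SE) on the log2 scale, and Ccne1 was lower in females, by -0.94 ± 0.23 (SE). The edgeR adjusted p was 0.00911, 0.0139 and 0.00081 in that order. The female mean of Gadd45b was above the male mean at 10 of 10 times in control and at 10 of 10 in fasted livers, and the control range was 0.491 to 1.33 CPM (median 0.817) in males and 0.702 to 2.15 CPM (median 1.44) in females from CT12 to CT44. The call for Gadd45b was lost with limma-voom (adjusted p 0.185), without female replicate 2 (0.111), without male replicate 1 (0.112) and without male replicate 2 (0.063). That for Gadd45a was lost without male replicate 2 (adjusted p 0.157) and that for Ccne1 without male replicate 1 (adjusted p 0.0616), while that for Ccnd1 held in every alternative tried.

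Other cyclins and CDKs were more often lower than higher in fasted livers, while the RB and E2F genes as a list were near all genes. Of 13 other cyclins and CDKs, 9 were lower and 1 was higher (background 32.9% and 29.5%), with a median log2 difference of -0.18. The D-type cyclins went apart, as Ccnd2 was lower by -0.79 ± 0.047 (SE) and Ccnd3 higher by 0.54 ± 0.039, and Ccnh, a subunit of the kinase that activates CDKs, was lower by -0.24 ± 0.030. Of 13 genes of the RB and E2F families, which release the S phase programme once cyclins act, 5 were lower and 3 higher. These counts are near the same background, and the median log2 difference was -0.021, against -0.020 for all genes. E2f2 and E2f1, activating members, were lower by -2.69 ± 0.17 and -1.40 ± 0.11, and Rbl2, the pocket protein of quiescent cells, was higher by 0.47 ± 0.033.

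Of 23 genes of DNA replication and mitosis, 18 were lower and 0 higher by edgeR (background 32.9% and 29.5%), with a median log2 difference of -0.97. At an unadjusted p under 0.05, 1 of them, Rrm2, was higher, and limma-voom and DESeq2 called 0 and 1 higher. Mcm5, Mcm6 and Mcm3, subunits of the replicative helicase, were lower by -1.80 ± 0.14, -1.36 ± 0.12 and -0.97 ± 0.087 (SE). Adgre1, Clec4f and Cd68 of the Kupffer markers were lower by -0.67 ± 0.083, -0.34 ± 0.044 and -0.42 ± 0.059, and Spp1, Krt19 and Krt7 of the cholangiocyte markers by -0.86 ± 0.077, -0.82 ± 0.097 and -0.46 ± 0.10. The summed level of cholangiocyte markers moved with these falls, at 24.6 to 66 CPM (median 39) in control and 6.78 to 50.3 CPM (median 23.7) in fasted libraries, as did that of Kupffer markers, at 189 to 514 CPM (median 288) and 131 to 406 CPM (median 209). At CT40, where Ccnd1 differed most, the cholangiocyte sum was 45.1 ± 14.1 CPM (SD) in control and 18.4 ± 6.25 in fasted livers, and the Kupffer sum 341 ± 129 and 158 ± 36.3. At CT16, where Ccnd1 was also called lower, the cholangiocyte sum was 33.6 ± 6.75 CPM (SD) in control and 30.5 ± 5.57 in fasted livers. The Kupffer sum was then 296 ± 54.4 and 310 ± 76.6. The part of these cells in the changes of Ccnd1 and of these lists was not tested. Nor was that of lymphocytes and stellate cells, of whose markers 3 of 5 each were lower, with 1 stellate marker higher. The summed level of stellate markers was 183 to 337 CPM (median 249) in control and 162 to 340 CPM (median 242) in fasted libraries.

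Of the GADD45 genes, Gadd45b and Gadd45g were higher and Gadd45a was lower in fasted livers, at 8 of 9 times each. For Gadd45b, whose product promotes survival in hepatocytes under stress, control livers at CT44 had 0.93, 0.816, 0.921 and 1.19 CPM and fasted livers 12.3, 33.9, 37.4 and 23 CPM. All 4 fasted livers were far above the controls, and the ratio of means, 27.7, was the largest of the 8 genes at any time. The log2 difference was 4.78 ± 0.56 (SE) with an edgeR adjusted p of 2.47e-09. At CT20, control livers had 1.14, 1.33, 1.23 and 1.7 CPM and fasted livers 11.2, 10.3, 34.1 and 26 CPM, with both fasted females above both fasted males. At CT40, control livers had 0.50, 0.935, 2.02 and 1.65 CPM and fasted livers 13.6, 8.5, 8.28 and 51.7 CPM, with fasted female 2 far above the other 3. At CT16 the fasted livers ranged widely, from 0.521 CPM in male 2, which lay below every control, to 46.6 CPM in female 2.

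Gadd45b had a low level in control livers from CT12 to CT44, between 0.491 and 2.15 CPM with a median of 0.932, from 17 to 99 counts in a library. Its range in fasted livers was wider, between 0.337 and 51.7 CPM with a median of 6.57. Its effect was 2.34 ± 0.34 (SE) over CT12 to CT20 and 3.66 ± 0.31 (SE) over CT36 to CT44, a difference of 1.32 ± 0.43 (SE) with an edgeR adjusted p of 0.0245. This call was lost in each of the 4 fits that left out a replicate (adjusted p 0.0552 to 0.259) and without fasted CT40 female 2 (1.02, adjusted p 0.0719).

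Gadd45g was the only one of the 8 genes called at CT12. There, control livers had 21.2, 38.2, 2.5 and 5.16 CPM of Gadd45g and fasted livers 79.6, 57.9, 53.5 and 83.3 CPM. The control males were well above the control females, yet all fasted livers were above all controls. The log2 difference was 2.68 ± 0.71 (SE) with an edgeR adjusted p of 0.0349, which each of the 4 fits that left out a replicate lost (adjusted p 0.121 to 0.25). At CT16, control livers had 13.9, 4.01, 6.39 and 3.17 CPM and fasted livers 79.2, 110.1, 100.5 and 96.1 CPM, an even group far above the controls. The ratio of means was 14 and the log2 difference 3.89 ± 0.74 (SE) (adjusted p 9.09e-05).

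Later values of Gadd45g were more scattered. At CT40, fasted livers had 53.2, 27.7, 24.2 and 226 CPM and control livers 5.94, 5.45, 3.54 and 9.82 CPM, and without fasted female 2, the highest of the 80 libraries for this gene, the log2 difference of 3.52 ± 0.73 (SE) became 2.35 and was still called. At CT36 it was 1.66 ± 0.68 (SE) and missed the threshold (adjusted p 0.0641). The call at CT32, 2.01 ± 0.69 (SE) (adjusted p 0.036), and that at CT28, 2.17 ± 0.70 (SE) (adjusted p 0.0214), were lost in 7 and 8 of 17 alternative fits.

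Gadd45a, the GADD45 gene best known as a p53 target, went the other way. At CT20, control livers had 3.88, 4.62, 3.15 and 4.36 CPM of Gadd45a and fasted livers 0.597, 0.377, 0.442 and 1.12 CPM. All fasted livers were below all controls, and the log2 difference was -2.70 ± 0.37 (SE) with an edgeR adjusted p of 7.86e-08. At CT32, control livers had 6.35, 5.43, 8.47 and 6.16 CPM and fasted livers 2.83, 2.2, 1.2 and 0.96 CPM, with the fasted females lowest (log2 difference -1.99 ± 0.34 (SE), adjusted p 2.20e-05). Over CT12 to CT44 the mean effect was -1.58 ± 0.11 (SE), and in males and females -1.27 ± 0.16 (SE) and -1.89 ± 0.16 (SE), a difference that did not pass the test (adjusted p 0.065). Before the fast, at CT8, it was -0.61 ± 0.31 (SE) and not called.

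Of 9 genes between the GADD45 proteins and the stress kinases, 5 were higher and 2 lower (background 29.5% and 32.9%). Map3k4, the kinase that GADD45 proteins bind, was lower by -0.68 ± 0.030 (SE), Map2k3 lower by -0.36 ± 0.039, and Map2k4, an activator of JNK, higher by 0.27 ± 0.018. Of 17 genes of the p53 network, 8 were higher and 6 lower, with a median log2 difference of 0.042. The 3 with the smallest p were higher, namely Ccng2, an unconventional cyclin of arrested cells, by 1.22 ± 0.071, the stress sensor Sesn2 by 1.61 ± 0.098 and the antiproliferative Btg1 by 0.60 ± 0.051. The other 5 higher were Btg2, Trp53inp1, Sesn1, Mdm2 and Mdm4, by 1.26 ± 0.18, 1.11 ± 0.13, 0.28 ± 0.12, 0.12 ± 0.027 and 0.11 ± 0.022. The 6 lower were Trp53 itself, by -0.15 ± 0.034, and Bbc3, Eda2r, Ccng1, Zmat3 and Bax, by -0.44 ± 0.083, -0.31 ± 0.12, -0.21 ± 0.027, -0.18 ± 0.036 and -0.15 ± 0.036. Aen, Pmaip1 and Phlda3 were not called.

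Myc was higher in fasted livers, but not evenly and with a difference before the fast. At CT44, control livers had 2.35, 2.43, 16.6 and 12 CPM of Myc and fasted livers 16.3, 18.8, 58.6 and 16.2 CPM. Fasted female 1 was the highest, control female 1 lay within the fasted range, and the log2 difference was 2.13 ± 0.59 (SE) (edgeR adjusted p 0.0034). At CT40, control livers had 8.24, 2.92, 6.27 and 15.2 CPM and fasted livers 10.7, 11.8, 16 and 107 CPM. The call there rested on fasted female 2, since the log2 difference of 1.77 ± 0.58 (SE) (adjusted p 0.0123) became 0.82 without that library (adjusted p 0.32). At CT20 and CT24, where Myc was not called, all 4 fasted livers were above all 4 controls, with 2.5, 3.18, 3.88 and 3.81 CPM in control and 8.67, 4.86, 12.5 and 7.72 CPM in fasted livers at CT24 (1.32 ± 0.60 (SE), adjusted p 0.107). At CT32 control and fasted livers had 23.8, 4.51, 7.56 and 5.33 and 7.67, 13.8, 8.48 and 7.89 CPM, and the difference was -0.029 ± 0.57 (SE). The call at CT44 was lost without female replicate 1 (adjusted p 0.0933).

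The library of fasted CT40 female 2 stood apart for several of the 8 genes. Besides its Myc and Gadd45g it had 51.7 CPM of Gadd45b, the highest of the 80 libraries. Its summed markers of Kupffer cells were 131 CPM, the lowest of all 80, its neutrophil markers 4.68 CPM, the highest, and its cholangiocyte markers 9.13 CPM. Their part in its values was not tested. The mean effect on Myc over CT12 to CT44, 1.14 ± 0.19 (SE), was 1.04 without this library and still called.

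At CT8, before food was removed, control livers had 43.6, 4.36, 32.1 and 49.8 CPM of Myc and the livers of the group to be fasted 16, 2.63, 8.76 and 3.19 CPM. In both groups male 2 was the lowest, and the other 3 control livers were above all livers of the other group. The log2 difference was -2.07 ± 0.58 (SE) with an edgeR adjusted p of 0.0589, as large as the differences during the fast and of the opposite sign. For Gadd45g too, male 2 was the lowest of each group and the other 3 control livers were above the other group, with 26, 1.89, 31.2 and 20.5 CPM in control livers and 11.1, 2.35, 4.13 and 2.91 CPM in the other group (-1.97 ± 0.71 (SE), adjusted p 0.163). None of the 8 genes was called at CT8 by edgeR, at which 1.33% of all genes were. At an unadjusted p under 0.05, 3 were lower in the group to be fasted, namely Myc, Gadd45g and Ccnd1. By limma-voom none was called, and DESeq2 called Myc (adjusted p 0.0189).

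Of 10 genes that share partners with MYC, 4 were higher and 3 lower (background 29.5% and 32.9%). The paralogs went apart, as Mycl was higher by 1.41 ± 0.093 (SE) and Mycn lower by -2.16 ± 0.23, while Mxi1, an antagonist that also pairs with MAX, was higher by 0.26 ± 0.027. Mycn was a low transcript, with a mean of 0.825 CPM in control and 0.229 CPM in fasted livers, against 7.55 and 20.6 CPM for Mycl. Of 12 MYC targets and ribosome biogenesis genes, 4 were higher and 3 lower, with a median log2 difference of 0.024. Cad, of pyrimidine synthesis, was lower by -0.91 ± 0.062, and Ldha, of lactate metabolism, and the nucleolar Npm1 were higher by 0.85 ± 0.062 and 0.41 ± 0.044. Among 12 immediate early genes, 10 were higher and 0 lower by edgeR, also 0 lower at an unadjusted p under 0.05, and 0 and 0 lower by limma-voom and DESeq2. Their median was 0.74, and Fosl2, Maff and Jun, subunits of AP-1 and related dimers, were higher by 0.86 ± 0.076, 1.67 ± 0.16 and 1.28 ± 0.12.

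**Figure D4:**
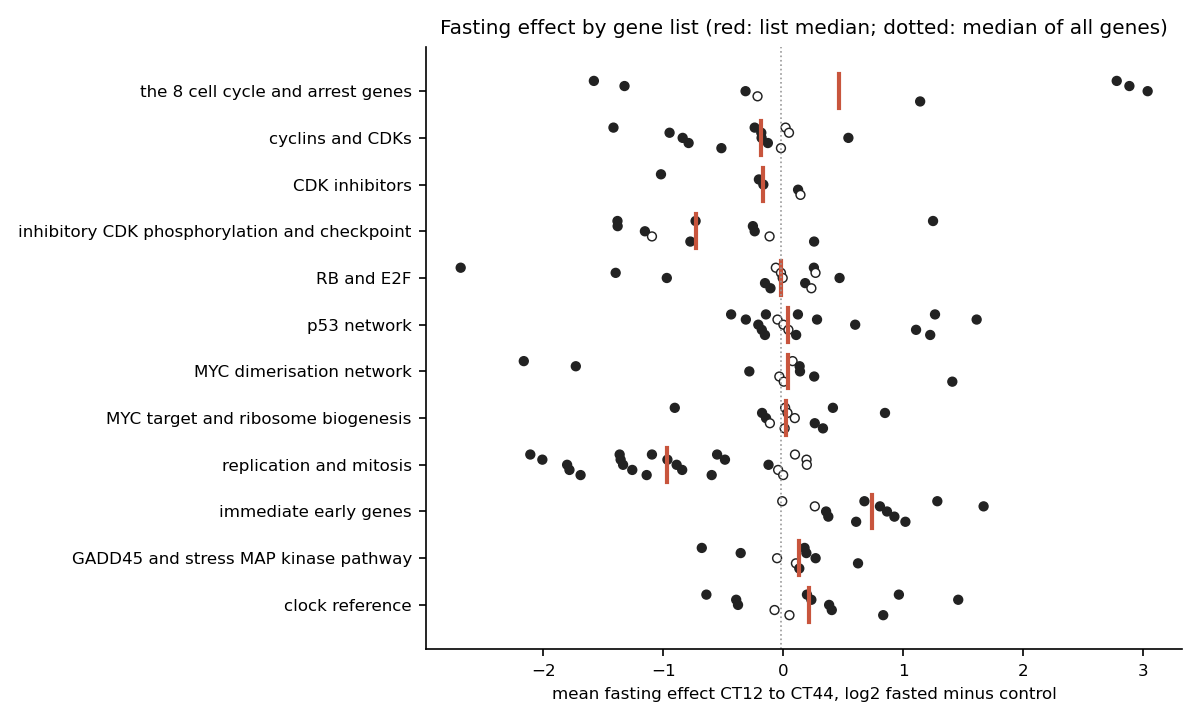
Mean log2 difference between fasted and control livers over CT12 to CT44 for each gene of each list, with filled points at an adjusted p under 0.05, a red bar at the median of the list and a dotted line at the median of all genes tested (-0.020). The replication and mitosis list lies mostly below 0 (median -0.97) and the immediate early genes mostly above it (median 0.74).

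In control livers 6 of the 8 genes had a 24 h rhythm, against 41.8% of all genes tested for it. Cdkn1a and Wee1 had the widest, with peak-to-trough sizes of 3.72 ± 0.34 (SE) and 2.91 ± 0.25 (SE) on the log2 scale, with fitted peaks at CT20.6 ± 0.381 h and CT11.8 ± 0.272 h. The edgeR adjusted p was 1.89e-10 for Cdkn1a and 7.51e-12 for Wee1. Ccne1 peaked at CT10.3 ± 0.621 h with a size of 2.48 ± 0.40 (SE), Ccnd1 at CT9.08 ± 0.597 h with 1.21 ± 0.17 (SE), Gadd45a at CT7.61 ± 0.837 h with 1.24 ± 0.22 (SE) and Myc at CT10.6 ± 1.05 h with 1.80 ± 0.54 (SE). The peaks of these 4 genes and of Wee1 fell between CT7.61 and CT11.8 in this fit. In the fit of both treatments from CT12 to CT44, the control peaks of Wee1 and Myc were at CT12.2 ± 0.308 h and CT12.8 ± 1.12 h. The rhythm of Myc was lost without male replicate 2 (adjusted p 0.0522) and in females alone (0.261). Gadd45b and Gadd45g were not called rhythmic in control livers (adjusted p 0.378 and 0.206).

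In fasted livers all 8 genes were called rhythmic beside a linear change over the fast (47.1% of all genes). Cdkn1a and Wee1 peaked at CT20.5 ± 0.462 h and CT12.4 ± 0.378 h, with sizes of 3.80 ± 0.44 (SE) and 2.59 ± 0.26 (SE). Gadd45b peaked at CT19.7 ± 0.627 h with a size of 2.82 ± 0.44 (SE) (adjusted p 1.91e-05), near Cdkn1a, and Gadd45g at CT17.2 ± 0.997 h with 1.53 ± 0.40 (SE) (adjusted p 0.00789). With a quadratic change added to the linear one, the calls for Gadd45g and Myc were lost (adjusted p 0.0839 and 0.411). In males alone those for Ccnd1 and Gadd45g were lost (edgeR adjusted p 0.301 and 0.0667). In females alone those for Gadd45a, Gadd45g and Myc were lost (0.135, 0.161 and 0.107). That for Myc was also lost without female replicate 2 and without male replicate 2. The fasted course covers CT12 to CT44, so less than 2 cycles were sampled.

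The rhythm of 1 gene differed between the treatments. In the fit of both over CT12 to CT44, the size for Gadd45b was 0.49 ± 0.42 (SE) in control and 2.83 ± 0.35 in fasted livers, with an edgeR adjusted p of 0.00117, in a test that called 23.2% of all genes. For Cdkn1a the sizes were 3.67 ± 0.46 and 3.81 ± 0.42, and for Wee1 2.87 ± 0.25 and 2.58 ± 0.25, neither pair called different. Of 12 clock genes, 12 were rhythmic in control livers, and 7 were higher and 3 lower in the mean over the fast (background 29.5% and 32.9%). Nr1d2, a repressor in the clock, was higher by 0.83 ± 0.051 (SE), Per1, of its negative limb, by 1.46 ± 0.11 and Rora, an activator, by 0.40 ± 0.044.

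**Figure D5:**
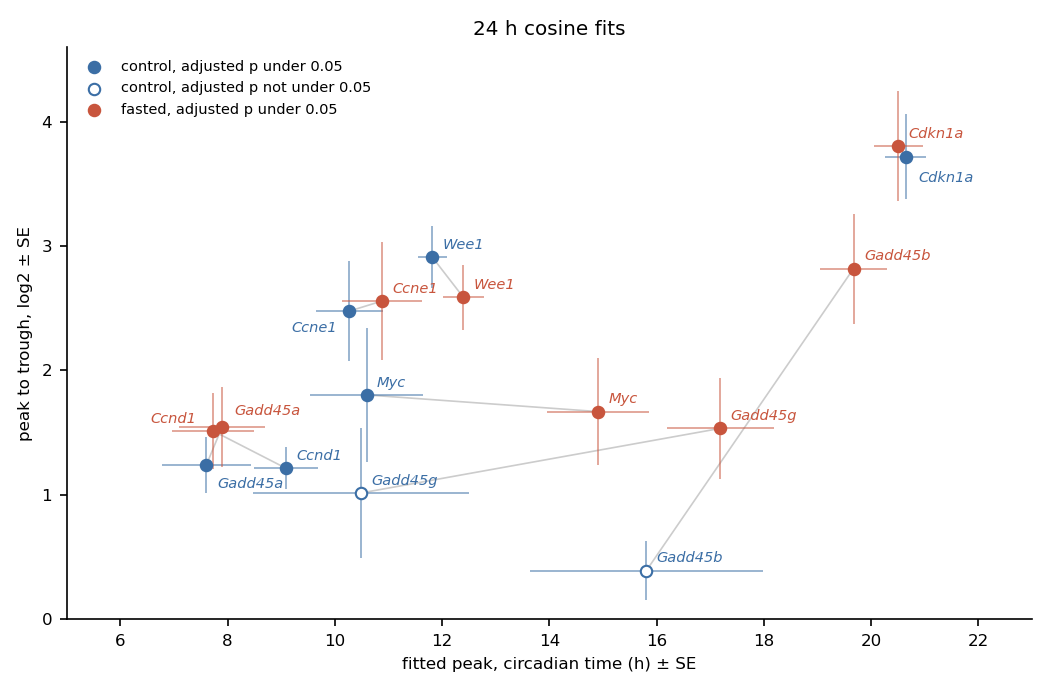
Fitted peak (circadian time in h) against peak-to-trough size on the log2 scale for each of the 8 genes in control (blue) and fasted (red) livers, with bars for the SE, open points where the rhythm was not called and grey lines joining the pair of each gene. The pairs of Wee1 and of Cdkn1a lie close together, while Gadd45b moves from an uncalled size of 0.39 to 2.82.

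Use of exons within the 8 genes was compared from the counts of exon bins. Of these, 84 bins in the 8 genes passed the filter, from 7 each in Ccnd1 and Gadd45g to 15 in Ccne1. None of the genes was called by edgeR's diffSpliceDGE (Simes adjusted p of 1 for each), in a test that called 14.3% of all genes. At an unadjusted p under 0.05 the number of bins was 0 by edgeR and 0 by limma's diffSplice. In simulated data for 3000 genes, the same test recovered 80.5% of 200 genes with 1 bin changed by a log2 value of 1. It also called 12 genes in which nothing was changed. This share need not hold for the 8 genes, and smaller shifts than those simulated may not be detectable here.

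The genes whose group means ran most like those of each member were sought over the 20 groups of treatment and time, as Pearson's r of log2 CPM, given as a description with no test. All points share the libraries of a group, and any gene that answers fasting or the clock in the same way scores high. Wee1 was closest to Rev1 (r 0.97), Per3 (0.97) and Ak4, Cdkn1a to Urml, Dot1l and Plin5 (r 0.96 each), and Ccnd1 to Fen1, Ifi35 and Hdac1 (r 0.95 to 0.96). Per3 is a clock gene, Plin5 coats lipid droplets and Fen1 acts in DNA replication. Ccne1 was closest to Ppat and Gcnt2 (r 0.93 and 0.92), Gadd45a to Gm57349, Pola2 and Chlsn (r 0.96 each), and Gadd45b to Gm20186, Ubl3 and Tnfrsf12a (r 0.97 each). Gadd45g was closest to Sema6b, Susd6 and Ccn2 (r 0.94 to 0.95), and Myc had the loosest likeness, to Il17rb, Osbpl3 and Rab27a (r 0.86 to 0.83).

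Among the 8 genes themselves, r over the 20 groups was -0.95 between Cdkn1a and Gadd45a, 0.85 between Cdkn1a and Gadd45b and 0.85 between Ccne1 and Wee1. Within control livers alone, over 10 times, these were -0.83, 0.23 and 0.87, and within fasted livers, over 9 times, -0.92, 0.88 and 0.79. Myc and Ccne1 ran together in control livers (r 0.91) and less so in fasted livers (0.25), a difference that was not tested. The points of each treatment are time points of a daily cycle, so genes of like phase score high.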

How the data were processed

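The authors deposited raw counts of reads per gene and per exon bin, as whole numbers that had not been normalized, and both tables, with 80 columns each, were used. A table of normalized values was not used. The submitters' processing notes name Trimmomatic, HISAT2, DESeq2 and the GRCm39 build, with no version, and the counting program and its use of strand are not given in the sources used here. Libraries came from polyadenylated RNA with a stranded kit. Treatment, time, sex and replicate were taken from titles, since other labels disagree with the titles on treatment for 40 libraries and on sex for 40. In the exon table, 5 rows that name no exon (8.28% to 25.9% of a column) were left out. The 120 pairs of replicates all differed by more than sampling noise (chi-square per degree of freedom of at least 14.8).

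Counts were filtered with filterByExpr, scaled by TMM (factors 0.829 to 1.09) and fitted with the quasi-likelihood method of edgeR 4.0.16 in R 4.3.3, with 1 coefficient for every combination of treatment, time and sex over all 80 libraries. The tests were Benjamini–Hochberg adjusted over all genes and called at an adjusted p under 0.05. Rhythms were fitted as a 24 h cosine with sex, over 40 control libraries, 36 fasted libraries with a linear change, or both from CT12 to CT44. Exon usage was tested with diffSpliceDGE. There 3 exon columns of fasted CT40 were matched best by another library, so that group was fitted without sex. Log2 values per library have a prior count of 2. Cell and pathway lists were taken by symbol.

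The members and the lists were chosen with earlier results of these data known. By a fixed rule the text names the 8 members, the 3 genes with the smallest p of each list and the 3 genes most like each member, among those whose mean log2 CPM is 1 or more. Of the genes so chosen, 1 is not reported here. In simulated data with 200 genes changed by a log2 value of 1, edgeR recovered 100% for the mean effect, 92.5% at CT24, 98.5% late minus early, 99.5% for the sex difference in fasting and 92% for the rhythm difference, and called 0 genes at CT8, where nothing was changed. The changed genes had a mean log2 CPM over 1, and their noise followed the trend of spread over all genes. These shares need not hold for genes with fewer counts or a wider spread. In the real data Myc at CT24, with a log2 difference of 1.32 ± 0.60 (SE), was not called. Alternatives were other scalings (DESeq2 1.42.0 size factors, upper quartile), other filters, limma 3.58.1 (voom), DESeq2's own test, an adjusted p of 0.01, males or females alone, no sex term, a replicate block, each replicate left out, and other rhythm models. Leaving out the library of fasted CT40 female 2 was chosen after seeing the data. The article is a review without methods, so no test was taken from it.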

Additional observations from a re-analysis of the deposited data

Results flagged for a closer look

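In 10 of the 160 groups of 4 livers (8 genes, 2 treatments and 10 times), the highest or lowest liver was separated from the nearest other by a gap larger than Dixon's 95% critical value for the share of the range, on the log2 scale. About 1 in 20 groups, here 8, would be so by chance. For Wee1 these were control CT24 female 2 (gap 0.8337 of the range, 3.83 CPM against 2.77 to 2.93 in the others) and fasted CT40 female 2 (0.8395, 7.51 CPM against 14.9 to 16.9 in the others). For Cdkn1a it was control CT44 female 2 (0.9008, 7.85 CPM against 27.6 to 31.7 in the others). For the GADD45 genes they were Gadd45a in fasted CT12 male 2 (0.8536, 3.54 CPM against 2.03 to 2.2 in the others) and fasted CT16 male 1 (0.8987, 1.16 CPM against 0.636 to 0.677 in the others), Gadd45b in fasted CT36 female 1 (0.9463, 19.7 CPM against 3.12 to 3.45 in the others), and Gadd45g in control CT8 male 2 (0.8499, 1.89 CPM against 20.5 to 31.2 in the others) and fasted CT44 male 1 (0.8716, 31.5 CPM against 75.5 to 85.8 in the others). For Myc they were fasted CT32 male 2 (0.8294, 13.8 CPM against 7.67 to 8.48 in the others) and fasted CT44 female 1 (0.8856, 58.6 CPM against 16.2 to 18.8 in the others).

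The fasting effect was called different between groups for 3 genes. Late minus early it was -0.945 (log2) for Ccnd1 and 1.32 for Gadd45b, and female minus male it was 1.08 for Ccne1, each by edgeR's test of the difference. These calls were lost in 4 of 16 alternatives for Ccnd1, 10 of 16 for Gadd45b and 6 of 11 for Ccne1. The rhythm of Gadd45b differed between treatments with an adjusted p of 0.00117.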

How the results depend on the processing

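The mean fasting effect on Cdkn1a, Ccnd1, Gadd45a, Gadd45b, Gadd45g and Myc kept its direction and its call in all 27 alternatives, and those on Wee1 and Ccne1 did not. Of the single-gene results, 1399 kept direction and side of the threshold, 132 lost their call, 14 gained one and 1 reversed, the mean effect on Ccne1 in females only (0.33). With a change of at least 1.5 times, 4359 genes had a mean effect in place of 13233. At an adjusted p of 0.01, 2473 genes in place of 4483 were called late minus early (1 member in place of 2), 2720 in place of 4858 for the rhythm difference, 1106 in place of 2621 for the sex difference in fasting (0 members in place of 1) and 8 in place of 282 at CT8. Females only gave 4692 control rhythms (main 8417), 4082 fasted rhythms (main 9395, with 5 members in place of 8), 27681 pairs of gene and time (main 48836), 2717 genes and 0 members late minus early, and 509 genes and 1 member at CT8. Males only gave 5104, 5893, 28582, 1819 genes and 1 member, and 0 genes in that order. Without sex in the model, 2742 genes and 0 members were called late minus early. With limma-voom, 1 member was called late minus early, 0 for the sex difference in fasting, and 4 genes at CT8. DESeq2 called 556 genes and 1 member at CT8. With no filter on low counts, 853 genes and 3 members were called at CT8, 5 members late minus early, 4 for the rhythm difference, 7 for the sex difference in controls (main 4) and 6 for that in fasting. The SE of Gadd45g at CT8 then fell from 0.71 to 0.12. For exon usage, at least 10 counts in every library gave 950 genes in place of 1986. Without control CT8 female 2, 11 genes were called at CT8. Without fasted CT40 female 2, 1 member, Myc, was called at CT8 and 0 for the sex difference in fasting. The cause of these changes was not tested.

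Leaving out each replicate in turn, or the library of control CT8 female 2 or of fasted CT40 female 2 alone, gave 6464 to 8790 genes for the control rhythm, 6697 to 10176 for the fasted rhythm, 2635 to 5398 for the rhythm difference, 1103 to 1479 for exon usage, 0 to 2123 at CT8 (0 to 1 members), 25717 to 50669 pairs of gene and time, 8485 to 13502 for the joint test, 1449 to 4719 late minus early (0 to 2 members), 5741 to 8722 for the sex difference in controls (2 to 4 members) and 238 to 2831 for that in fasting (0 to 2 members). The pairs of member and time called were 32 to 44 in these fits, against 44. Fewer libraries were fitted there.

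Replicate numbers do not pair the livers. Over 20 pairs the correlation of deviations had a median of 0.0019, and 1 pair was over 0.1. With the replicate block, 4 genes were called at CT8, 1 member late minus early (Gadd45b lost its call, adjusted p 0.0628), and 47 pairs of member and time. Without male 1, without male 2 and without sex in the model the joint test of Wee1 was lost (adjusted p 0.102, 0.187 and 0.101). With 2 mice of a sex at a time, values at single times have wide errors, from 0.24 to 0.27 (SE, log2) for Wee1 to 0.68 to 0.74 for Gadd45g. Leaving out control CT8 female 2 gives no value for the fasted rhythm and the rhythm difference, and leaving out fasted CT40 female 2 none for the control rhythm.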
